A study of Saccharomyces cerevisiae with 4 samples.

Results

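The expression of 10 genes of gluconeogenesis and the glyoxylate cycle was followed in budding yeast, *Saccharomyces cerevisiae*, under nitrogen deficiency. The genes were chosen by name, with earlier results of these data known. The rows of the deposited table that carry their open reading frame (ORF) identifiers were taken, and all 10 were found among the 6301 ORFs listed. They were FBP1 (YLR377C), PCK1 (YKR097W), ICL1 (YER065C), ICL2 (YPR006C), MLS1 (YNL117W), MDH2 (YOL126C), ACS1 (YAL054C), IDP2 (YLR174W), SFC1 (YJR095W) and JEN1 (YKL217W). Each carried a value on all 4 arrays, so none was lost to a filter on missing values.

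Nitrogen-poor yeast of strain S288c had been moved at mid log phase into minimal medium that lacked amino acids and adenine and held 0.025% ammonium sulfate, and was incubated for 12 h. Nitrogen-rich yeast of the same strain was cultured in synthetic complete medium, and all cultures were kept at 30 C. cDNA from both media, primed with oligo-dT mixed with the multi-targeted primer (MTP), was hybridized together to arrays of PCR-amplified ORFs, with 2 arrays in each of 2 dye orientations. The sources used here name neither the carbon source nor the density of the nitrogen-poor culture after its incubation, so that medium, time in it and growth state cannot be told apart in this comparison.

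Gluconeogenesis rebuilds hexose phosphates from small carbon compounds. It shares most steps with glycolysis and needs its own enzymes where glycolysis runs only one way, of which phosphoenolpyruvate carboxykinase and fructose-1,6-bisphosphatase are the best known. The glyoxylate cycle is a bypass of the citrate cycle that spares the steps releasing carbon dioxide, and so lets cells build sugars and amino acids from acetate. In yeast these genes are known for strong repression by glucose and for activation by the Snf1 kinase and by zinc cluster proteins such as Cat8 and Sip4.

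All values below are log2 ratios of minimal over synthetic medium, relative to the average well measured spot of an array. By their titles, arrays M1 and M2 carried the cDNA from minimal medium in Cy5, and arrays S1 and S2 the cDNA from synthetic medium in Cy5, the digit being the replicate number. Per-array values are given in the order M1, M2, S1 and S2. The deposited columns already ran in the same direction. Titles and channel descriptions place the dyes differently, and the direction was therefore taken from ratios that the study lists by medium. A ratio cannot tell fewer cells with a transcript from less transcript per cell.

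All 10 genes were more abundantly expressed in nitrogen-poor than in nitrogen-rich medium, with 40 of 40 array values above 0. Their mean log2 ratios spread from 0.36 to 4.54, with a median of 2.23, against a median of 0.03 over all 5956 ORFs tested. An adjusted p of 0.05 or less from limma was reached by 10 of the 10 genes, all in the direction of higher expression in minimal medium. Calls were frequent on these arrays, since 65.3% of all ORFs tested passed that threshold, 33.8% as higher and 31.5% as lower, so that a call alone set these genes apart from few others. A log2 ratio of at least 1, above 0 on every array with a value, was reached by 8 of the 10 genes, compared with 5.57% of all ORFs tested. The remaining pair was PCK1 and JEN1. Since the genes were chosen with earlier results of these data known, no test was run on the set.

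**Figure D1:**
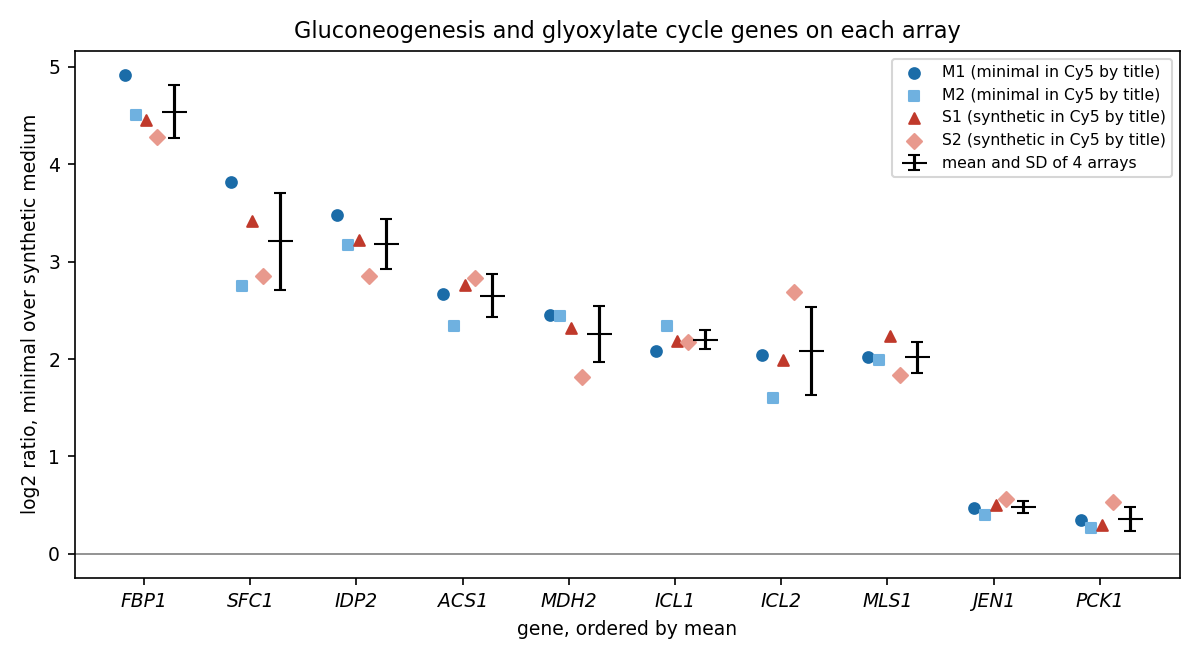
Log2 ratio of minimal over synthetic medium (vertical axis) for each of the 10 genes, ordered by mean, with 1 point per array and the mean and SD of 4 arrays beside them. FBP1 lies highest at 4.28 to 4.92, 7 genes lie between 1.60 and 3.82, and JEN1 and PCK1 lie between 0.27 and 0.56.

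The pair of enzymes that belong to gluconeogenesis alone stood at opposite ends of the range. FBP1, the gene for fructose-1,6-bisphosphatase, which removes a phosphate from fructose-1,6-bisphosphate, had log2 ratios of 4.92, 4.51, 4.45 and 4.28. Every array placed it above every other gene of the set. Its mean was a 23.3-fold higher expression in minimal medium (95% confidence interval 19.6 to 27.7; adjusted p = 8.13e-07 from limma), and 2 of all ORFs tested had a higher mean.

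PCK1, the gene for phosphoenolpyruvate carboxykinase, which turns oxaloacetate into phosphoenolpyruvate, had log2 ratios of 0.35, 0.27, 0.30 and 0.53. It was the lowest of the set on every array. The mean of 0.36 ± 0.12 (SD, n = 4 arrays) was a 1.28-fold higher expression in minimal medium (95% confidence interval 1.15 to 1.43; adjusted p = 0.00254 from limma). In the order of all ORFs tested, 1358 had a higher mean. The intervals of FBP1 and PCK1 did not overlap.

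ACS1 and the cycle genes ICL1, MLS1 and MDH2 had mean log2 ratios between 2.02 and 2.65. ACS1, for the acetyl-coenzyme A synthetase that activates acetate, had log2 ratios of 2.67, 2.34, 2.76 and 2.83, a mean of 2.65 ± 0.22 (SD, n = 4 arrays). ICL1, for isocitrate lyase, which splits isocitrate into succinate and glyoxylate, had 2.08, 2.34, 2.19 and 2.18. Its arrays were close together, with an SD of 0.10, and the mean was a 4.59-fold higher expression in minimal medium (95% confidence interval 4.14 to 5.08; adjusted p = 1.15e-06 from limma).

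MLS1, for malate synthase, which joins glyoxylate and acetyl-coenzyme A, had log2 ratios of 2.02, 1.99, 2.24 and 1.84. The mean of 2.02 ± 0.16 (SD, n = 4 arrays) amounted to a 4.07-fold higher expression in minimal medium. MDH2, for the cytosolic malate dehydrogenase that gives oxaloacetate, had 2.45, 2.44, 2.32 and 1.82, the last array lying below the rest. The ranges of ICL1, MLS1 and MDH2 overlapped one another, so that these consecutive steps of the cycle could not be put in an order.

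ICL2 encodes a mitochondrial protein that resembles isocitrate lyase and acts on 2-methylisocitrate in the breakdown of propionate. It had log2 ratios of 2.04, 1.60, 1.99 and 2.69, a mean of 2.08 ± 0.45 (SD, n = 4 arrays). The arrays were widely spread, with a mean of 1.82 for M1 and M2 and of 2.34 for S1 and S2. The mean was larger than this spread and passed the threshold (adjusted p = 5.07e-05 from limma). With an unmoderated variance the adjusted p for ICL2 was 0.0108 from limma.

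IDP2 and the genes for the carriers, SFC1 and JEN1, included both large and small ratios. IDP2, for the cytosolic isocitrate dehydrogenase that yields NADPH, had log2 ratios of 3.48, 3.17, 3.22 and 2.85. SFC1, for the mitochondrial carrier that exchanges cytosolic succinate for fumarate, had 3.82, 2.75, 3.42 and 2.85. SFC1 had the widest SD of the set, 0.50, and in both orientations replicate 1 lay above replicate 2. The means of 3.21 for SFC1 and 3.18 for IDP2 corresponded to 9.27-fold and 9.05-fold higher expression in minimal medium, and 18 and 19 of all ORFs tested had higher means.

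JEN1, for the plasma membrane permease that takes up lactate and pyruvate, had log2 ratios of 0.47, 0.40, 0.50 and 0.56. Its arrays were the most tightly grouped of the set, with an SD of 0.06. The mean was a 1.39-fold higher expression in minimal medium (95% confidence interval 1.27 to 1.53; adjusted p = 0.000338 from limma), and 83.3% of all ORFs tested had a lower mean. JEN1 was thus past the threshold but well below the cycle genes ICL1, MLS1 and MDH2.

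**Figure D2:**
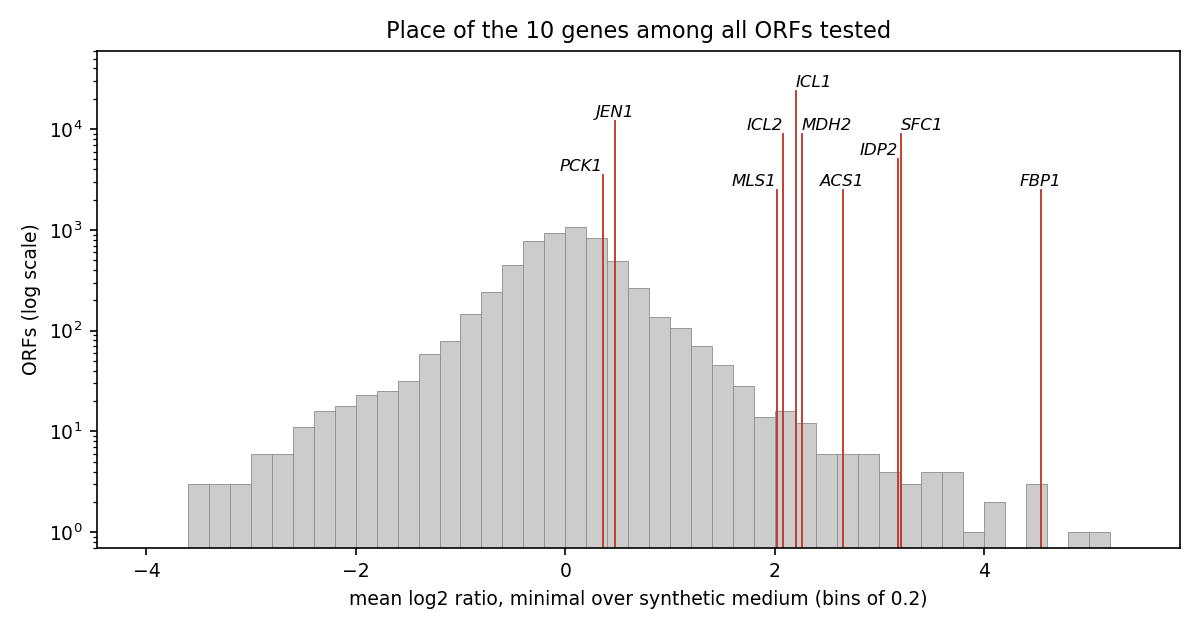
Number of ORFs (vertical axis, log scale) by mean log2 ratio of minimal over synthetic medium (horizontal axis, bins of 0.2) for all 5956 ORFs tested, with a red line at the mean of each of the 10 genes. The means of 8 genes lie at 2.02 or above, in the thin upper tail, whereas JEN1 at 0.48 and PCK1 at 0.36 lie within the body of the distribution.

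In the order of means, FBP1 was followed by SFC1, IDP2, ACS1, MDH2, ICL1, ICL2, MLS1, JEN1 and PCK1. Of the 9 pairs of neighbors in this order, 6 had overlapping ranges. The gaps without overlap lay between FBP1 and SFC1, with a mean difference in log2 ratio of 1.33 ± 0.34, between IDP2 and ACS1, with 0.53 ± 0.38 and ranges that came close, and between MLS1 and JEN1, with 1.54 ± 0.19 (SD, n = 4 arrays each). JEN1 exceeded PCK1 on 4 of 4 arrays, but by only 0.12 ± 0.07 (SD, n = 4 arrays), and the ranges overlapped. The exact two-sided sign-flip permutation test over 4 arrays cannot give a p below 0.125, which these 4 pairs reached (0.281 after Benjamini-Hochberg adjustment over the 9 pairs). The SD exceeded the median SD of all ORFs tested, 0.14, in 7 of the 10 genes. The mean of M1 and M2 was above that of S1 and S2 for 5 genes and below it for the other 5.

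Isozymes of these genes that reside elsewhere in the cell or serve other routes had smaller ratios, except in the case of ICL1 and ICL2. IDP2 differed most from its relatives. IDP1, for the mitochondrial isocitrate dehydrogenase linked to NADP, was less abundantly expressed in nitrogen-poor medium, with log2 ratios of -1.81, -1.89, -2.13 and -1.92. IDP3, for the peroxisomal enzyme, was lower as well, at -0.47, -0.46, -0.30 and -0.30. IDP2 exceeded IDP1 by 5.11 ± 0.26 and IDP3 by 3.56 ± 0.33 on the log2 scale (SD, n = 4 arrays each), higher on 4 of 4 arrays in both cases.

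MDH2 likewise stood above the other malate dehydrogenases. MDH3, for the peroxisomal enzyme, was higher in minimal medium at 0.68, 0.64, 0.55 and 0.63, and MDH2 exceeded it by 1.63 ± 0.29 (SD, n = 4 arrays). MDH1, for the mitochondrial enzyme of the citrate cycle, had a value on 3 arrays, at 0.00, 0.03 and -0.22, and did not pass the threshold (adjusted p = 0.511 from limma). On these arrays MDH2 exceeded it by 2.46 ± 0.06 (SD, n = 3 arrays). ACS1 exceeded ACS2, the gene for the other acetyl-coenzyme A synthetase, by 2.32 ± 0.16 (SD, n = 4 arrays), with ACS2 at 0.21, 0.21, 0.51 and 0.40.

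MLS1 and DAL7 differed less. DAL7 encodes the malate synthase that is known for its part in the breakdown of allantoin, a nitrogen source, and had log2 ratios of 1.25, 1.27, 1.31 and 1.70. MLS1 exceeded it on 4 of 4 arrays, by 0.64 ± 0.34 (SD, n = 4 arrays). Spots of whole ORFs can share signal between similar genes, and how much MLS1 and DAL7 or the IDP genes shared was not tested. ICL1 and ICL2 differed by 0.12 ± 0.51 (SD, n = 4 arrays), from -0.51 to 0.74 on single arrays, a spread that holds differences of either sign.

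The 7 differences were examined by the exact two-sided sign-flip permutation test over arrays. The 5 pairs with the same sign on 4 arrays gave an exact p = 0.125, the smallest that 4 arrays can give, and 0.175 after Benjamini-Hochberg adjustment over the 7 pairs. MDH2 against MDH1 gave p = 0.25, the smallest that 3 arrays can give (exact test), and ICL1 against ICL2 gave p = 0.625 (exact test). With 4 arrays or fewer this exact test cannot pass 0.05, whatever the size of a difference, and no test with a pooled spread was run on the pairs.

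**Figure D3:**
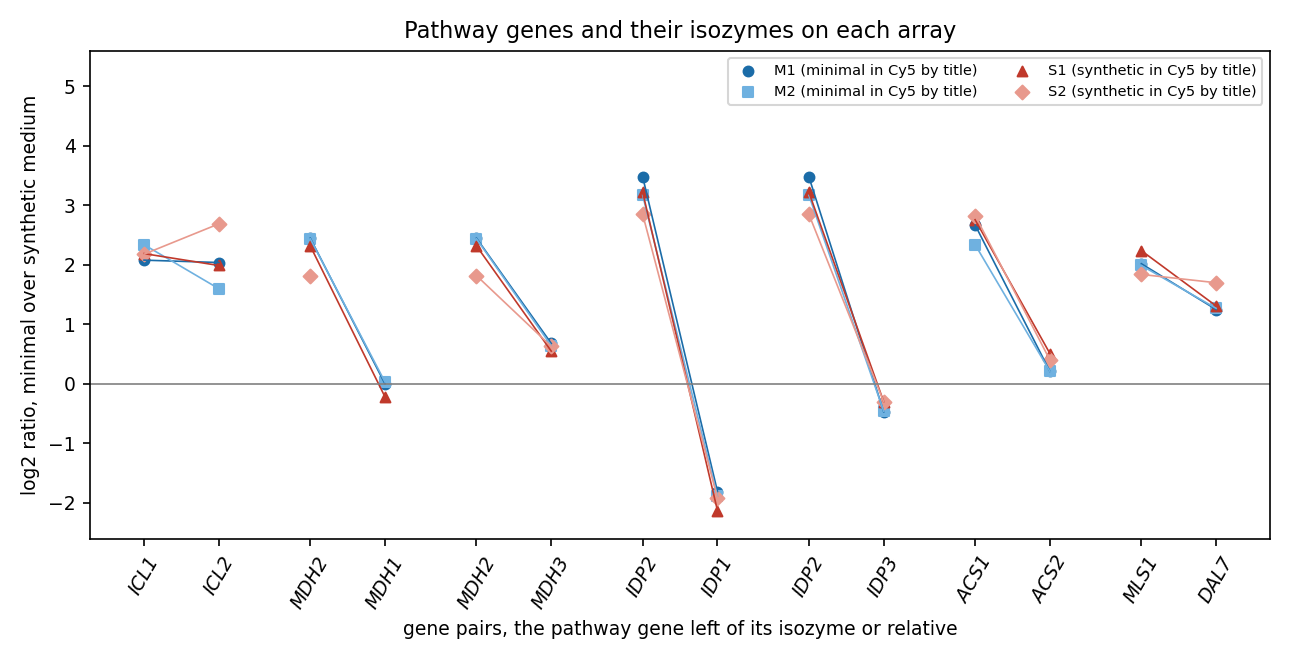
Log2 ratio of minimal over synthetic medium (vertical axis) for 7 pairs of genes, each with the gluconeogenesis or glyoxylate cycle gene on the left and its isozyme or relative on the right, with 1 point per array and a line joining the values of an array. Lines fall from left to right on every array in 6 pairs, most steeply from IDP2 to IDP1, and cross between ICL1 and ICL2.

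Other steps joined to the cycle included both higher and lower genes, as did all ORFs tested, of which 33.8% were higher and 31.5% lower. Of 11 isozymes and partners of the cycle, 6 were higher and 4 lower in minimal medium at an adjusted p of 0.05 from limma, and their median log2 ratio was 0.33. CIT2, for the peroxisomal citrate synthase that supplies the glyoxylate cycle, was at -2.38, -2.58, -2.51 and -2.52, that is 5.64-fold lower in minimal medium. CIT2 thus fell on arrays on which ICL1 and MLS1 rose. CIT1, for the mitochondrial citrate synthase, was higher at 0.54 ± 0.05 (SD, n = 4 arrays). ACO1, for aconitase, which forms isocitrate, was higher at 1.23 ± 0.11 (SD, n = 4 arrays).

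The genes of the 2-methylcitrate route beside ICL2 moved apart. CIT3, for a mitochondrial citrate synthase that also makes 2-methylcitrate, was lower at -0.66 ± 0.14 (SD, n = 4 arrays). PDH1, for 2-methylcitrate dehydratase, was higher at 0.85 ± 0.10 (SD, n = 3 arrays). Both ratios were smaller in size than that of ICL2.

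Steps on either side of PCK1 and FBP1 were examined next. PYC1 and PYC2, for the cytosolic pyruvate carboxylases that make the oxaloacetate used by PCK1, were 3.11-fold and 2.01-fold lower in minimal medium. Among 10 genes of the reversible steps shared with glycolysis, 6 were higher and 2 lower past the threshold. The shares over all ORFs tested were 33.8% and 31.5%, and the median log2 ratio of the 10 was 0.25. ENO1 and ENO2, for enolase, the step after PCK1, were highest at 0.77 ± 0.11 and 0.71 ± 0.14 (SD, n = 4 arrays each). None of these 10 reached a log2 ratio of 1. How much signal the spots of similar genes shared, such as ENO1 with ENO2 or PYC1 with PYC2, was not tested. The calls of FBA1 at -0.37, GPM1 at -0.19 and TDH3 at 0.24 were lost on leaving out M1, M2 or S2, with adjusted p-values of up to 0.0886, 0.178 and 0.167 from limma, so that no lower call was left in this list without one of these arrays. The call of PGK1 at 0.27 was lost without M2, S1 or S2, with adjusted p-values of up to 0.0693 from limma.

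A list of 12 genes held opposing one-way steps together with PYC1, PYC2 and FBP26. Past the threshold 4 of them were higher and 6 lower, against 33.8% and 31.5% of all ORFs tested. The median log2 ratio of the 12 was -0.17. PFK1 and PFK2 encode the subunits of phosphofructokinase, which runs against FBP1. PFK2 was at -0.34 ± 0.23 (SD, n = 4 arrays), with an adjusted p of 0.0156 from limma. This limma value rose to 0.0591 without M2 and to 0.0943 with an unmoderated variance. PFK1 split by dye orientation, at -0.33 and -0.30 on M1 and M2 against 0.55 and 0.14 on S1 and S2, and did not pass (adjusted p = 0.95 from limma). CDC19 and PYK2, for pyruvate kinase, were lower at -0.47 ± 0.15 and -0.71 ± 0.04 (SD, n = 4 arrays each).

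Fructose-2,6-bisphosphate is a signal that inhibits fructose-1,6-bisphosphatase. FBP26, for an enzyme that removes it, was higher in minimal medium at 1.14, 1.09, 1.12 and 1.03. Of the kinases that make it, PFK27 was 2.01-fold lower and PFK26 1.62-fold higher. HXK1 at 1.04 ± 0.13 and GLK1 at 0.66 ± 0.07 (SD, n = 4 arrays each), which phosphorylate glucose on entry, were higher, and HXK2 at 0.01 ± 0.02 (SD, n = 4 arrays) did not pass (adjusted p = 0.898 from limma).

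The GID ubiquitin ligase marks gluconeogenic enzymes for destruction when glucose returns. Of 8 genes listed for it, 6 were tested. Past the threshold 3 were higher and 2 lower, against 33.8% and 31.5% of all ORFs tested. UBC8, for its ubiquitin-conjugating enzyme, was highest at 1.14 ± 0.11 (SD, n = 4 arrays), followed by FYV10 at 0.93 ± 0.10 (SD, n = 3 arrays). VID24, for the subunit that binds the substrates, was lowest at -1.29 ± 0.28 (SD, n = 3 arrays). GID7 was at -0.20 ± 0.15 (SD, n = 4 arrays), a call lost without M2, S1 or S2, with adjusted p-values of up to 0.145 from limma, and after centering. VID30 and VID28 carried no value on any array.

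By mean, no transcription regulator of these genes reached, in size, the ratios of the 8 genes from FBP1 to MLS1. The ERT1 mean of -1.9 came close in size to the MLS1 mean of 2.02, and their array values overlapped in size. Of 11 listed, 6 were higher and 3 lower past the threshold, against 33.8% and 31.5% of all ORFs tested. The median log2 ratio of the 11 was 0.30. CAT8 had a value on 3 arrays, at 1.75, 0.65 and 0.76, and its call was lost when its variance was not moderated (adjusted p = 0.139 from limma). SIP4 was at 0.57, 0.54 and 0.64 on the same 3 arrays. ADR1, an activator of genes for ethanol and fatty acid use, split by orientation at -0.39 and -0.16 on M1 and M2 against 0.56 and 0.23 on S1 and S2, and did not pass (adjusted p = 0.736 from limma).

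ERT1, for a zinc cluster protein that binds gluconeogenic promoters, was lowest of the regulators at -1.90, -1.99, -2.03 and -1.70, and GSM1, for a related protein, was highest at 1.12 ± 0.05 (SD, n = 4 arrays). RDS2, of the same family, was at 0.36 ± 0.13 and HAP4, an activator of respiration, at 0.30 ± 0.23 (SD, n = 4 arrays each). The HAP4 call was lost on leaving out M1, with a mean of 0.20, or M2, with adjusted p-values of 0.0694 and 0.0789 from limma, and after centering. SNF1, for the kinase, was lower at -0.52 ± 0.11 and SNF4, for its activating subunit, higher at 0.53 ± 0.07 (SD, n = 4 arrays each). Of the repressors, MIG1 was lower at -0.26 ± 0.09 and MIG2 at -0.15 ± 0.17 (SD, n = 4 arrays each) did not pass (adjusted p = 0.131 from limma).

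Genes for the supply of acetyl units and for carriers beside SFC1 and JEN1 were examined last. Of 12, 3 were higher and 6 lower past the threshold, against 33.8% and 31.5% of all ORFs tested, with a median of -0.14. ADY2, for an acetate transporter of the plasma membrane, was higher at 1.68, 1.15, 1.63 and 1.66, above JEN1 on every array. Among the mitochondrial carriers, ODC1 was higher at 1.65 ± 0.13 and ODC2, its close relative, lower at -2.02 ± 0.11 (SD, n = 4 arrays each). Among genes of the carnitine route of acetyl transport, YAT2 at -2.34 ± 0.15 (SD, n = 4 arrays) and the carrier gene CRC1 at -1.64 ± 0.18 (SD, n = 3 arrays) were lower. The other two had small ratios, YAT1 at -0.05 ± 0.15 without passing (adjusted p = 0.598 from limma) and CAT2 at -0.19 ± 0.11 (SD, n = 4 arrays each). ALD4, for a mitochondrial aldehyde dehydrogenase that forms acetate, was higher at 0.60 ± 0.10, and ADH2, for the alcohol dehydrogenase that uses ethanol, was lower at -0.66 ± 0.11 (SD, n = 4 arrays each). The lower call of CAT2 was lost without M1, M2 or S1, with adjusted p-values of up to 0.139 from limma. CTP1, for the mitochondrial citrate carrier, was at -0.31, a call lost without M2 and without S1, and without S1 its ratio was -0.16 (adjusted p = 0.143 from limma). The count of lower calls in this list lay between 4 and 6 over the alternatives.

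**Figure D4:**
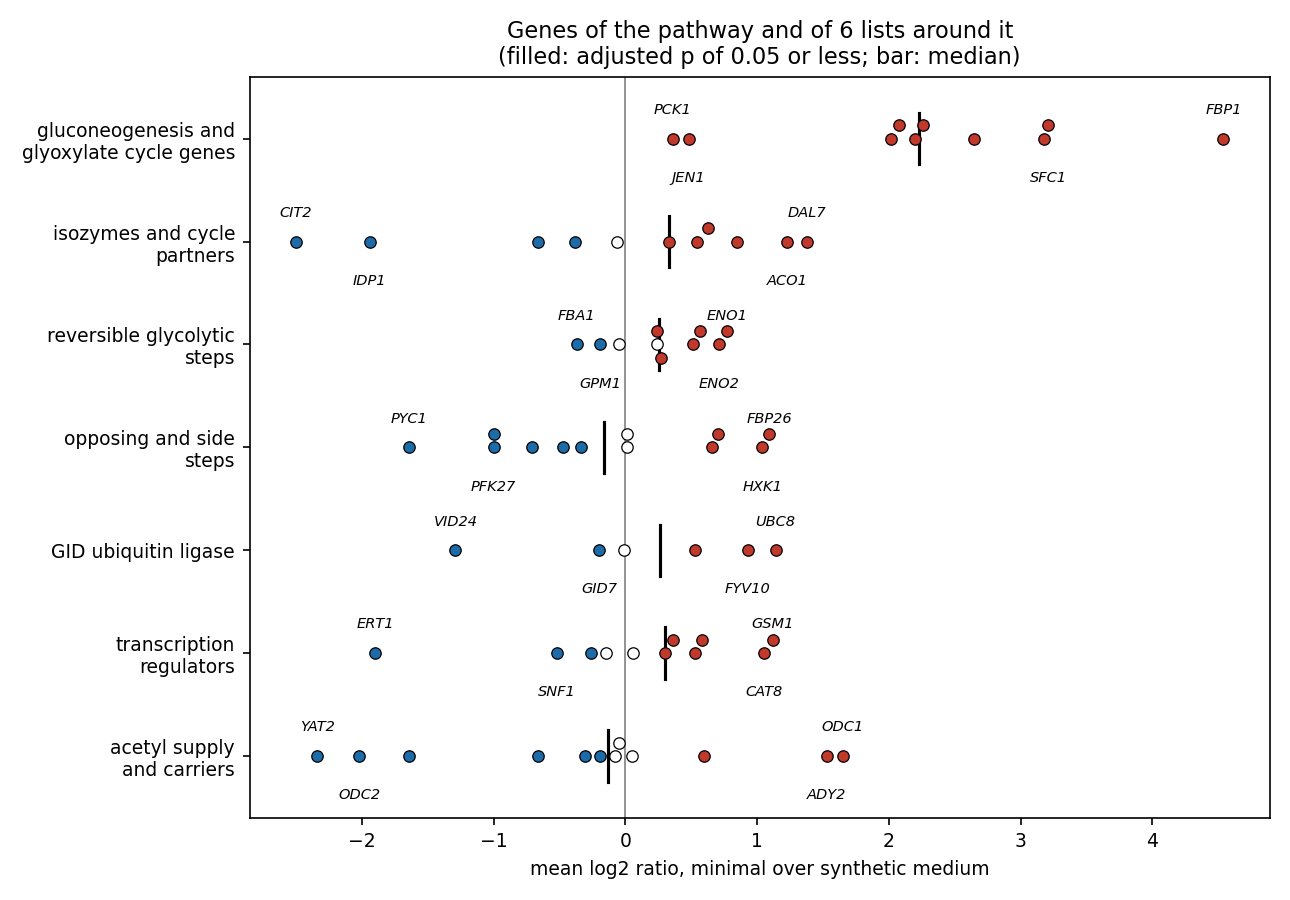
Mean log2 ratio of minimal over synthetic medium (horizontal axis) for the 10 genes, in the top row, and for 6 lists of related genes, with filled points at an adjusted p of 0.05 or less from limma, red for higher and blue for lower, open points otherwise, and a bar at the median of each row; points that would overlap are shifted vertically. The 10 genes lie to the right of 0 with a median of 2.23, whereas the medians of the other lists lie between -0.17 and 0.33.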

How the data were processed

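The authors scanned the arrays, subtracted background, left spots that were not well measured without a value, normalized by the mean and deposited a log2 ratio for each ORF on each array. Scanner intensities were not used here. Between 5548 and 5992 ORFs carried a value per array. Precision is limited by the number of arrays, and the replicates were independent reverse transcription reactions, not known to be separate cultures. The intervals and p-values given here measure the spread between these arrays and may not cover variation between cultures. Direction and log base were settled against the signs and sizes of ratios by medium that the study lists, over the 1930 ORFs that could be matched.

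ORFs measured on 3 or more arrays, 5956 in number, entered a fit in R 4.3.3 and limma 3.58.1, with the mean as the single coefficient and Benjamini-Hochberg adjustment over all of them. The limma test took the place of the study's Bayesian program. It was tested on simulated data. Symbols and neighbors were taken from NCBI's gene table of assembly R64, in which 5801 ORFs matched and 500 did not. Members and lists were chosen with earlier results of these data known. All 10 genes, their isozymes, all listed regulators and the highest and lowest of each list were named. A further gene of the isozyme list is not reported here and stays out of that list's counts. Same-numbered arrays of opposite orientation did not deviate together (r = 0.0121 across 5231 ORFs). Alternatives left out arrays, centered or scaled them, added terms, and changed the filter, variance or threshold.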

Additional observations from a re-analysis of the deposited data

Results flagged for a closer look

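None of the 10 genes had an array far from the others by the gap between the outermost value and its neighbor, divided by the range. Of the 62 groups of 4 array values examined, members and listed genes together, 3 had such an array, and chance alone gives about 1 in 20. ADY2, the acetate transporter gene, had a ratio of gap to range of 0.906, with array M2 at 1.15. For the other 2 the array apart was S2. ODC2 had a ratio of gap to range of 0.865, with that array at -1.85. DAL7, the relative of MLS1, had 0.86, with that array at 1.70.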

How the results depend on the processing

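All 10 genes stayed higher in minimal medium and past an adjusted p of 0.05 from limma under every alternative fit. The highest adjusted p among them was 0.0228, for PCK1 with an unmoderated variance. With a replicate block 10 of the 10 were called, of 3501 ORFs called in all. The numbers do not pair the samples by the check above, and the block changed no call among the 10. Counts of ORFs called ran from 3074 with unmoderated variances to 4479 at an unadjusted one-sided p of 0.05 from limma in the observed direction. They ran from 3333 to 3757 on leaving out single arrays. The mean difference of ICL1 and ICL2 turned to -0.09 without M2, and lay between -0.09 and 0.33 on leaving out single arrays. Of the 62 list genes tested, 52 had the same outcome, called or not called, under all alternative fits. The other 10 were all called in the main fit and lost that call in some alternative. Among the latter, the count of lower calls fell to 0 in the reversible steps without M1, M2 or S2, with a replicate block or with unmoderated variances, and to 1 in the GID list under most alternatives. The cause was not tested. Brightness over background was not used here, so that its effect on weak spots could not be given.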

Other observations

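The nearest protein-coding neighbors of the 10 genes on both sides were looked up in the R64 gene table after the values had been seen, and all 20 had values. Of these, 13 were higher and 4 lower in minimal medium at an adjusted p of 0.05 from limma, with a median log2 ratio of 0.49, and 5 reached a log2 ratio of 1 on the higher side. Of all ORFs tested, 33.8% were higher, 31.5% were lower and 5.57% reached that ratio. MLS1 had a pair of higher neighbors, DCP2 (YNL118C), for the mRNA decapping enzyme, at 1.46 ± 0.14 and DMA2 (YNL116W) at 1.59 ± 0.19 (SD, n = 4 arrays each). Beside JEN1, SRY1 (YKL218C) was at 1.47 ± 0.13 (SD, n = 4 arrays), above JEN1 itself on every array. Beside FBP1, by contrast, PSY3 (YLR376C) was at 0.68 ± 0.09 and SEC61 (YLR378C) at 0.39 ± 0.07 (SD, n = 4 arrays each), far under FBP1. CBF5 (YLR175W), for the pseudouridine synthase of ribosomal RNA, was lower at -1.05 ± 0.11 (SD, n = 4 arrays) beside IDP2. MDH2 lay between RPL25 (YOL127W) at 0.10 ± 0.18 and TRM13 (YOL125W) at -0.15 ± 0.09 (SD, n = 4 arrays each), neither of which passed.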
